A study of Dicentrarchus labrax with 8 samples.

Results

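The genes *rbp4*, *crabp1* and *cyp26a1* were the 3 genes of retinoid handling chosen for their lower signal in stage II than in stage I testes of the European sea bass, out of 11705 targets on a custom oligonucleotide array. *rbp4* was read by the target SeabassC-CL261Contig1, *crabp1* by cDN30P0002C04.F.ab1 and *cyp26a1* by cDN32P0004N12.F.ab1. Each target had 3 probes and each probe 2 spots, which gave 18 spots for the 3 genes on each array. All 3 were among the 9012 targets that passed the filter on dim probes, but *crabp1* and *cyp26a1* passed it through stage I, the stage in which they were brighter.

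The testes came from untreated, farmed males sampled around normal puberty, after males with sperm in the previous breeding season had been set aside. In stage II testes spermatogonia were multiplying, type B cells had appeared in cysts, and some testes had reached primary spermatocytes. Stage I testes were immature, and their germ cells were type A spermatogonia. Males were staged by histology and picked by plasma 11-ketotestosterone, a fish androgen, so that the groups also differ in this hormone. Each stage was represented by 18 males, whose RNA was joined in 3 pools of 6 fish. Pool 3 of either stage was run on plate 36 and on plate 37, which made 8 arrays with a single dye. The other stage II pools lay on plate 37 and the other stage I pools on plate 36. The pools were the replicates, so the spread between single fish is not seen.

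Retinoic acid (RA) is made from vitamin A and acts through nuclear receptors that bind DNA. Retinol travels in plasma bound to retinol binding protein 4 (*rbp4*), which the liver secretes and other tissues can also express. Inside cells, RA is bound by cellular retinoic acid binding protein 1 (*crabp1*) and is hydroxylated and cleared by the cytochrome P450 enzyme of *cyp26a1*, whose own transcription is known to be raised by RA in many vertebrates. In the mouse testis and ovary RA is known for its part in the entry of germ cells into meiosis.

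The *cyp26a1* promoter of the sea bass holds candidate sites for the receptors of RA. They are shown because the retinoic acid receptor and its partner, the retinoid X receptor, typically bind direct repeats of a half-site. The study's list of predicted sites in this promoter has 9 entries for retinoid X receptor matrices, and their letters were searched for direct repeats of any pair of the half-sites AGGTCA and also GGGTCA and also AGTTCA and also GGTTCA, with a spacing of 0 to 8 bases. In 2 of the 9 entries such a repeat was found, both on the minus strand and both with a spacing of 5 bases, as given here 5′ to 3′ with the half-sites in capitals.
first site: agcgGGTTCAaacttGGGTCAgcaa
second site: aattAGTTCActcaaAGTTCAtctt
The first site joins 2 different half-sites and the second repeats the same one. The study's list gives both entries under a matrix for direct repeats with a spacing of 5 bases. Their spacing therefore follows from how they were listed and is not a result of the search. A match is a description of the letters and no measurement of binding, and the share of all promoters with such a repeat was not computed here.

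*rbp4*, the retinol carrier, was bright on every array. The median of its 6 spots, as processed signal in units of scanner intensity, was 6109, 11158, 7924 and 8085 on the arrays of stage II pool 1, pool 2, pool 3 on plate 36 and pool 3 on plate 37. The corresponding medians were 22615, 27351, 18277 and 21909 on the arrays of stage I pool 1, pool 2, pool 3 on plate 36 and pool 3 on plate 37. The dimmest stage I array was thus above the brightest stage II array, although the 75th percentile of all spots was higher on the stage II arrays (3245 to 4402) than on the stage I arrays (2559 to 2994).

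*crabp1*, the intracellular RA carrier, was dim in stage II. Its median spot signal was 165, 288, 256 and 233 on the stage II arrays, in the same order of arrays, and 470, 578, 400 and 485 on the stage I arrays. All 6 spots were well above background on 7 of the 8 arrays, whereas on the array of stage II pool 1 none of them was.

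*cyp26a1*, the RA-clearing enzyme, had median spot signals of 104, 267, 253 and 221 on the stage II arrays. On the stage I arrays its medians were 380, 453, 885 and 963, so that both arrays of stage I pool 3 stood above the other stage I arrays. The array of stage II pool 1 held 4 of the 6 *cyp26a1* spots, between 91.5 and 130 and none of them well above background. The other 2 of its spots, at 1714 and 381, were marked as outliers by the scanner software and left out. On the remaining 7 arrays all 6 spots were used and were well above background.

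The array of stage II pool 1 stood apart from the rest. On it 60.2% of all spots were well above background, against 75.8 to 86.7% on the other arrays, and its negative control spots had a median of 59.9, against 12.5 to 25.2 on the other stage II arrays and 10.3 to 19.3 on the stage I arrays. On this array the median *cyp26a1* signal was 1.73 times and the median *crabp1* signal 2.75 times that of the negative controls. On the other stage II arrays these ratios were 10.6 to 20.2 for *cyp26a1* and 11.3 to 20.5 for *crabp1*, and *rbp4* was at 102 times the controls or more on all 8 arrays. The part of this background in the stage II values of the dim genes was not tested, and values without the pool are given for each gene.

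**Figure D1:**
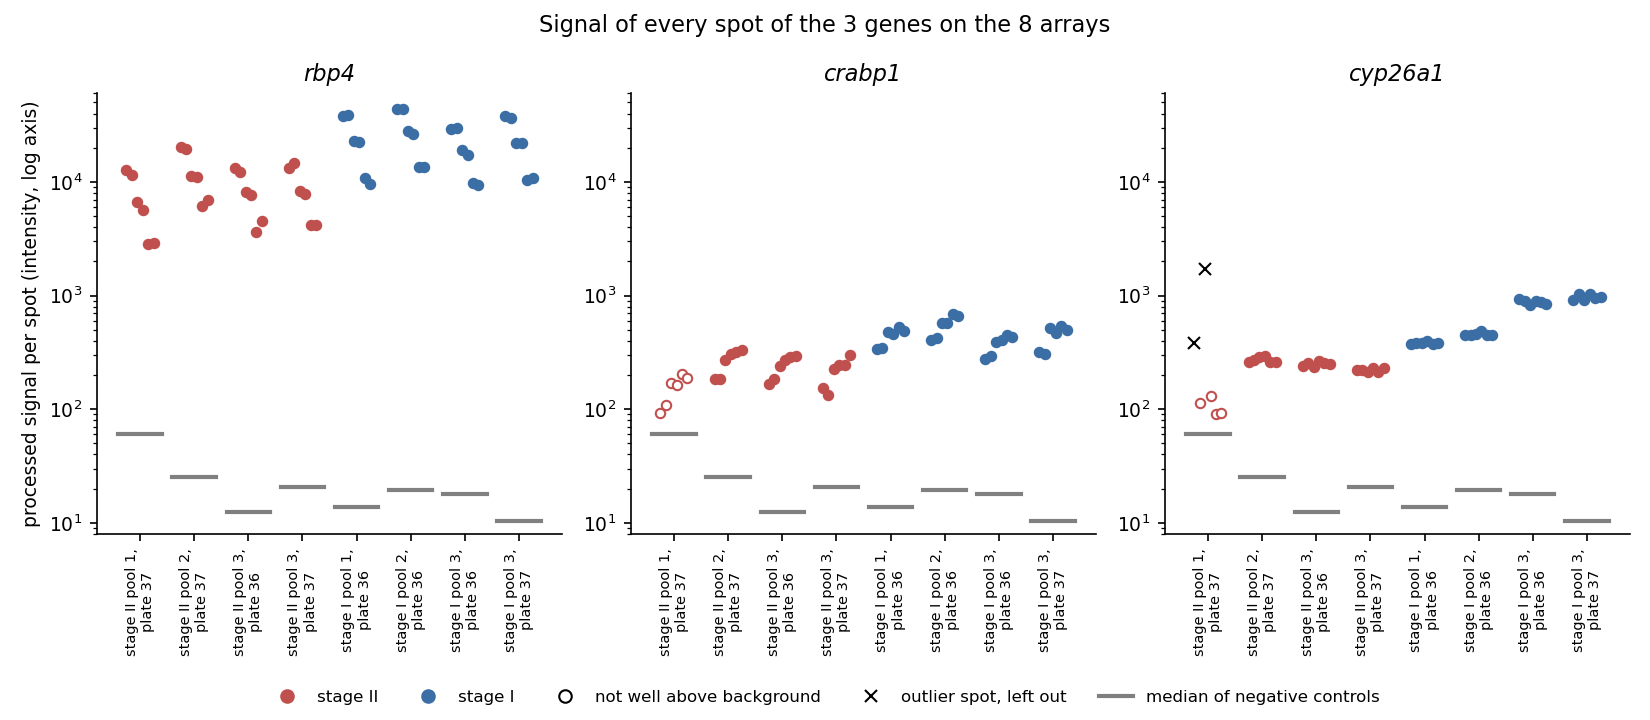
Processed signal (intensity, log axis) of every spot of *rbp4*, *crabp1* and *cyp26a1* on the 8 arrays, with stage II in red and stage I in blue. Open circles are spots not well above background, crosses are the 2 outlier spots of *cyp26a1* at 1714 and 381, and grey bars are the median of the negative controls, which was 59.9 on the array of stage II pool 1.

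To compare pools, the log2 signal was set relative to the 75th percentile of each array, averaged over spots and then over probes, with the mean of both arrays standing for pool 3. On this scale a value of 0 is the 75th percentile of the array, and the level of a gene is not to be set against that of another gene, since probes differ in how brightly they report. In RNA of whole testis, fewer cells of a type and less RNA per cell cannot be told apart. The stage difference chose the 3 genes, so it is given as a description with no test.

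*rbp4* had log2 levels of 0.87, 1.36 and 1.01 in stage II pools 1 to 3, against 2.92, 3.22 and 2.77 in stage I pools 1 to 3. The stages did not overlap, and a gap of 1.41 separated the highest stage II pool from the lowest stage I pool. The mean level was 1.08 ± 0.25 in stage II and 2.97 ± 0.23 in stage I (SD, n = 3 pools each), a log2 difference of -1.89 with a standard error of 0.20, or a signal 3.70-fold lower in stage II. Over the 9 pairs of a stage II and a stage I pool the difference lay between -2.34 and -1.41.

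*crabp1* had log2 levels of -4.45, -4.10 and -4.09 in stage II pools 1 to 3, against -2.65, -2.32 and -2.80 in stage I pools 1 to 3. Its pools did not overlap either, with a gap of 1.29 between the stages. The mean was -4.21 ± 0.21 in stage II and -2.59 ± 0.24 in stage I (SD, n = 3 pools each), a log2 difference of -1.62 with a standard error of 0.19, or 3.08-fold lower in stage II. The 9 pairs of pools differed by -2.13 to -1.29. Without stage II pool 1, the pool near background, the difference was -1.50.

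*cyp26a1* had log2 levels of -4.87, -4.01 and -4.00 in stage II pools 1 to 3, against -2.83, -2.57 and -1.58 in stage I pools 1 to 3. The stages were apart by a gap of 1.17, and in each stage a single pool lay away from the other 2. The mean was -4.29 ± 0.50 in stage II and -2.33 ± 0.66 in stage I (SD, n = 3 pools each), a log2 difference of -1.96 with a standard error of 0.48, or 3.90-fold lower in stage II. The pairs of pools ran from -3.28 to -1.17. The difference was -1.68 without stage II pool 1 and -1.59 without stage I pool 3. With the outlier spots of stage II pool 1 kept it was -1.66, or 3.16-fold lower in stage II.

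**Figure D2:**
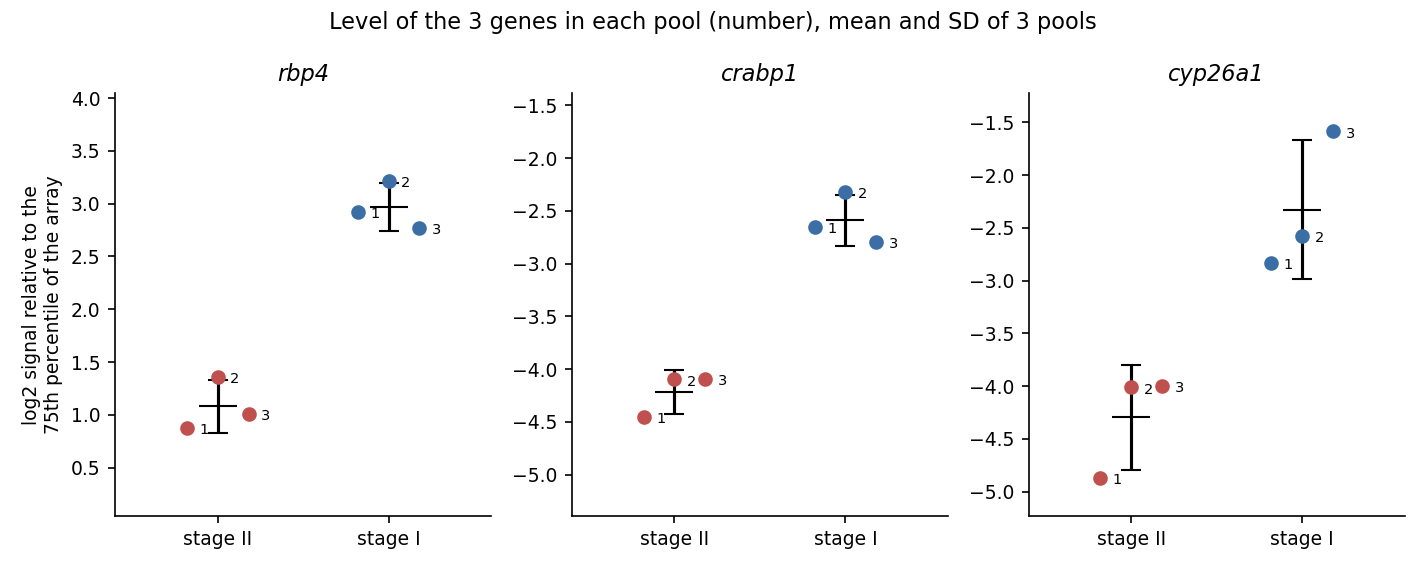
Log2 level (0 is the 75th percentile of all spots) for *rbp4*, *crabp1* and *cyp26a1* in the pools of stage II (red) and stage I (blue), with the pool number beside each point and bars for the mean and SD of 3 pools. Each panel spans 4 log2 units around its own gene, the stages do not overlap in any panel, and *cyp26a1* has the widest spread within a stage.

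Calls over all targets used limma, with a fold change over 2 and a Benjamini-Hochberg adjusted p under 0.01. Of the 9012 tested targets, 6.42% were called lower in stage II, 1.72% higher and 8.14% in either direction. Every stage II pool lay below every stage I pool in 39.3% of all tested targets. Since this contrast chose the 3 genes, nothing is read from their own calls or from the lack of overlap. The median difference over all tested targets was -0.14. The order of the 3 differences depended on the pools and on the processing. Without stage II pool 1 *cyp26a1* (-1.68) differed by less than *rbp4* (-1.78). Without stage I pool 3 *cyp26a1* (-1.59) differed by less than both *rbp4* (-1.99) and *crabp1* (-1.73). *cyp26a1* was also behind *rbp4* with quantile normalization (-1.66 against -1.93) and with normexp (-1.34 against -1.83). The same held with the outlier spots kept (-1.66 against -1.89) and, narrowly, with the median over probes (-1.95 against -1.97). A shift to the median or to the spike-in controls kept *cyp26a1* first.

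**Figure D3:**
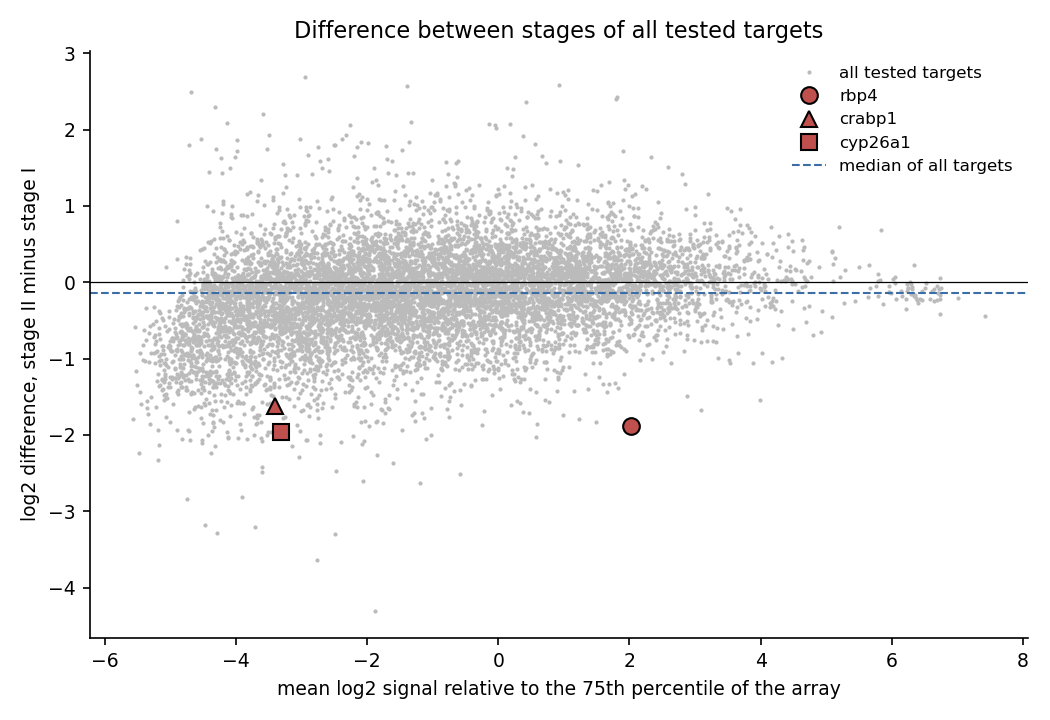
Log2 difference between stage II and stage I (stage II minus stage I) against the mean log2 level of the 6 pools for the 9012 tested targets (grey), with *rbp4*, *crabp1* and *cyp26a1* in red. The dashed line is the median of all targets at -0.14, and *rbp4* lies among brighter targets than *crabp1* and *cyp26a1* while the 3 differences lie between -1.96 and -1.62.

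The 3 probes of each gene gave close differences. For *rbp4* they were -1.83, -1.97 and -1.86 on the log2 scale, for *crabp1* -1.75, -1.59 and -1.53, and for *cyp26a1* -1.96, -1.88 and -2.05. The SD over the probes of a gene was 0.070 for *rbp4*, 0.116 for *crabp1* and 0.089 for *cyp26a1*. None of the 9 probes overlapped between the stages, and all were lower in stage II. The genes were chosen on this contrast, and 39.3% of all tested targets were likewise lower without overlap. That share was not computed for single probes, and probes of the same gene are not independent, so nothing is read from this count. Without stage II pool 1 the *cyp26a1* probes gave -1.69, -1.65 and -1.69, the *crabp1* probes -1.61, -1.47 and -1.43, and the *rbp4* probes -1.80, -1.86 and -1.69. Of the 4 stage II arrays, 3 showed the *cyp26a1* and *crabp1* probes well above background, as did the 4 stage I arrays, and the *rbp4* probes were so on all 8.

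Among the spots that were used, the SD of paired spots on an array was smaller than the SD between pools in the reported processing. Paired spots of a probe on the same array had an SD of 0.082 log2 units for *rbp4* (24 pairs), 0.090 for *crabp1* (24 pairs) and 0.059 for *cyp26a1* (22 pairs, without those holding an outlier). The largest gap between paired spots was 0.31 for *rbp4*, 0.30 for *crabp1* and 0.18 for *cyp26a1*. Against these values the SD between the pools of *cyp26a1* was 0.66 in stage I and 0.50 in stage II. With the outlier spots kept the stage II SD was 0.027, below the spot SD of 0.059, which leaves those spots out. Paired spots share the background of their array, so their SD does not cover error common to a whole array. The level of *cyp26a1* in stage II pool 1 was -4.87 as reported. It was -6.32 with the negative controls subtracted and -2.95 with normexp background correction.

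The repeated arrays of pool 3 gave a second measure of error that the choice of genes did not use. Between plate 37 and plate 36 the same stage II pool differed by 0.17 for *rbp4*, -0.07 for *crabp1* and -0.07 for *cyp26a1* on the log2 scale, where the SD of this difference over all targets was 0.158. The same stage I pool differed by 0.03 for *rbp4*, -0.01 for *crabp1* and -0.08 for *cyp26a1*, where that SD was 0.206. Only the stage II value of *rbp4* exceeded the SD over all targets, and each of the 6 values was under 0.2 log2 units.

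The plate was tested over all targets in a model of stage plus plate, in which arrays of the same pool were treated as correlated. The plate 37 minus plate 36 difference was 0.08 for *rbp4* (standard error 0.09), -0.07 for *crabp1* (standard error 0.08) and -0.02 for *cyp26a1* (standard error 0.20). The limma adjusted p-values over 8991 targets were 0.95, 0.947 and 0.999 for *rbp4*, *crabp1* and *cyp26a1*, so that no plate effect was detectable for them. In this comparison 1 target passed both limits, or 0.0111% of those tested, and 675 had an unadjusted p under 0.05. With plate and pool in the model the stage difference was -1.93 for *rbp4*, -1.56 for *crabp1* and -1.97 for *cyp26a1*.

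Within a plate the difference could be set between 3 arrays of a stage and 1 of the other. On plate 36, with 1 stage II and 3 stage I arrays, it was -2.04 for *rbp4*, -1.47 for *crabp1* and -1.65 for *cyp26a1*. On plate 37, with 3 stage II arrays and 1 stage I array, it was -1.67 for *rbp4*, -1.42 for *crabp1* and -2.68 for *cyp26a1*. On plate 37 the single stage I array was that of pool 3, the highest pool for *cyp26a1*, and the stage II arrays included that of pool 1, the lowest.

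In the reported processing the pools of either stage varied most for *cyp26a1*. The SD over its stage II pools was larger than in 94.0% of the tested targets and that over its stage I pools larger than in 98.9%, where the median target had an SD of 0.139 in stage II and 0.114 in stage I. For *rbp4* these shares were 75.9% in stage II and 84.9% in stage I, and for *crabp1* 68.9% in stage II and 87.3% in stage I. In stage II the spread of *cyp26a1* rested on pool 1: with the outlier spots kept, that pool was at -3.96 and the stage II SD was 0.027. The stage II SD was then larger for *rbp4* (0.25) and *crabp1* (0.21). With normexp the stage II SD of *cyp26a1* was 0.32, below the 0.38 of *crabp1*. With quantile normalization it was 0.23, below the 0.26 of *rbp4*. In stage I *cyp26a1* kept the largest SD of the 3 genes under each way of making the signal.

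In stage I the high pool of *cyp26a1* was pool 3, and it was high on both plates, at -1.55 on plate 36 and -1.62 on plate 37. On plate 36, where the 3 stage I pools lay together, *cyp26a1* in pool 3 was above pool 1 by 1.28 and above pool 2 by 1.03 log2 units. *rbp4* and *crabp1* did not share this in the reported processing: on the same plate pool 3 minus pool 2 was -0.46 for *rbp4* and -0.47 for *crabp1*, and pool 3 minus pool 1 was -0.17 for *rbp4* and -0.14 for *crabp1*. For *crabp1* this depended on the background correction. With normexp (median signal, offset 50) its stage I pool 3 was the highest, at -1.59 against -2.08 in pool 2 and -2.44 in pool 1. *rbp4* still had its lowest stage I value in pool 3. Over all tested targets, 39 (0.433%) had an excess of stage I pool 3 over the higher of pools 1 and 2 at least as large as the 0.99 of *cyp26a1*, which is itself the 39th, and the median excess was -0.09. This pool was singled out after its values were seen, and with 6 fish in a pool the number of fish behind the excess is unknown.

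The pools of a stage deviated from their mean in patterns that could be set side by side. In stage II the deviations of *rbp4* were -0.21, 0.28 and -0.07 in pools 1 to 3, those of *crabp1* -0.24, 0.12 and 0.12, and those of *cyp26a1* -0.58, 0.28 and 0.29. In the reported processing pool 1 was thus the lowest stage II pool of all 3 genes. It was also the pool of the array with the high background. The share of all targets with pool 1 lowest in stage II was not computed. With normexp background correction pool 1 stayed lowest for *rbp4* only. It was then the highest stage II pool of *crabp1* (-2.90 against -3.59 and -3.51) and of *cyp26a1* (-2.95 against -3.50 and -3.53). With the outlier spots kept, pool 1 was also the highest for *cyp26a1*, at -3.96 against -4.01 and -4.00. With quantile normalization pool 3 was the lowest stage II pool of *crabp1*, at a log2 value of 7.58 against 7.65 in pool 1 and 7.67 in pool 2. In stage I the deviations of *rbp4* were -0.05, 0.25 and -0.20 in pools 1 to 3 and those of *crabp1* -0.06, 0.27 and -0.21, so that these genes differed by at most a few hundredths of a log2 unit in each pool. Their order, with pool 2 highest and pool 3 lowest, was also that of 21.1% of all tested targets. The deviations of *cyp26a1* in stage I were -0.50, -0.24 and 0.74, with pool 3 highest. With normexp *crabp1*, too, was highest in stage I pool 3, so its closeness to *rbp4* in these pools did not hold there. Under the other ways of making the signal, both genes kept pool 2 highest and pool 3 lowest in stage I.

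**Figure D4:**
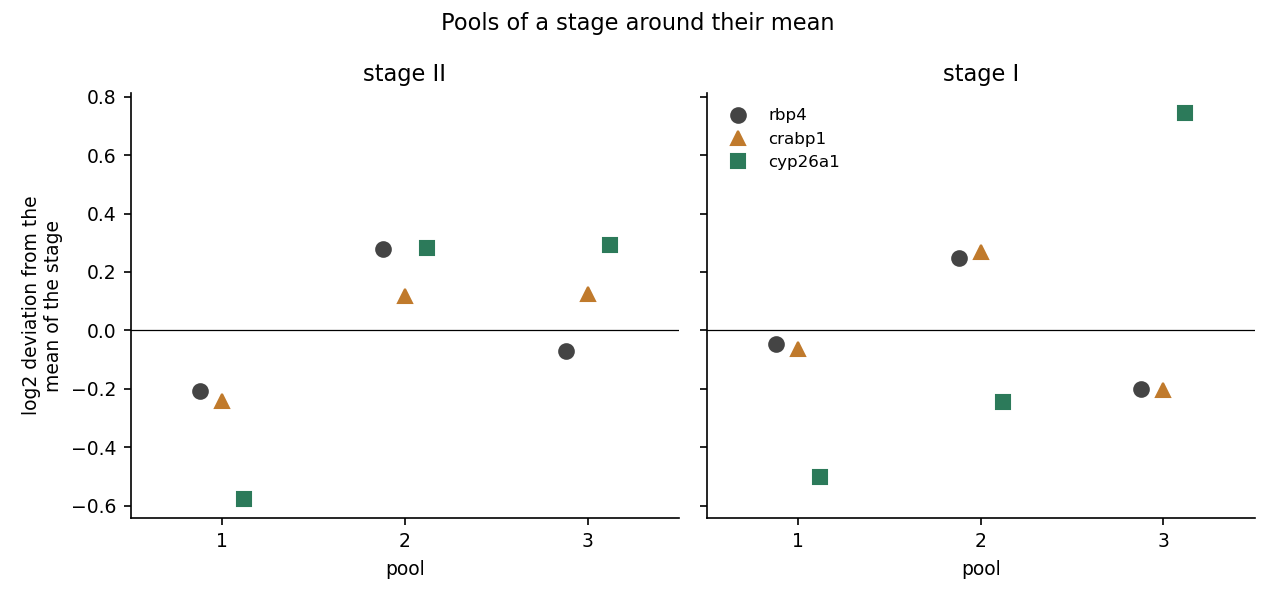
Deviation of each pool from the mean of its stage (log2 units) for *rbp4* (circles), *crabp1* (triangles) and *cyp26a1* (squares), with stage II on the left and stage I on the right. In stage I the *rbp4* and *crabp1* points lie together in each pool, while *cyp26a1* is at 0.74 in pool 3.

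Likeness of pattern was measured as the root mean square difference over the 6 pools between log2 levels centred on their mean, which includes the stage difference that chose the genes. It was 0.17 between *rbp4* and *crabp1*, 0.52 between *cyp26a1* and *rbp4*, and 0.53 between *cyp26a1* and *crabp1*. Of the tested targets 9 were nearer to *rbp4* than *crabp1* was, and 40 were nearer to *crabp1* than *rbp4* was. More targets stood between *cyp26a1* and the other genes: 159 were nearer to *cyp26a1* than *rbp4* was and 176 nearer than *crabp1* was, while 694 were nearer to *rbp4* and 1620 nearer to *crabp1* than *cyp26a1* was.

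The targets closest in pattern to *rbp4* were cDN35P0002F24.F.ab1 (0.10), *bnc1* (0.11), *pah* (0.13), *stl2* (0.14) and cDN28P0006A11.F.ab1 (0.14). Among these *bnc1* encodes the zinc finger protein basonuclin 1 and *pah* encodes phenylalanine hydroxylase, a liver enzyme. Their stage differences were -2.04 for *bnc1*, -1.95 for *pah* and -1.86 for *stl2*. The closest to *crabp1* were cDN27P0002J03.F.ab1 (0.07) and again cDN28P0006A11.F.ab1 (0.08), and none of its 5 closest was paired with a symbol. The patterns closest to *cyp26a1* were farther away, at 0.23 for SeabassC-CL3169Contig1, 0.27 for cDN35P0001D09.F.ab1 and 0.28 for *olf186-f*, whose stage difference was -2.10.

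Of 40 symbols of the retinoid pathway that were looked up, among them enzymes of RA synthesis, other binding proteins, transporters and receptors, 3 were paired with a target, and these were *rbp4*, *crabp1* and *cyp26a1* themselves. Symbols were paired with targets only in the list of genes that the study selected on these same arrays. The remaining 37 could therefore not be looked up by symbol and were not analysed here. The summed level of the 3 genes, as signal over the 75th percentile, was 1.91 to 2.69 in stage II pools and 7.29 to 9.65 in stage I pools. This sum is on the linear scale and is nearly all *rbp4*. The log2 levels of *rbp4* were 0.87 to 3.22, against -4.87 to -1.58 for *cyp26a1* and -4.45 to -2.32 for *crabp1*. Sums of other lists likewise weigh their brightest targets most.

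Markers of cell types also differed between the stages, some in the direction of the 3 genes and others in the opposite direction. The 4 meiotic germ cell genes found of 7 listed were all called higher in stage II (*dmc1*, the meiotic recombinase, by 1.71 log2 units), with summed levels of 10.5 to 14.8 in stage II pools and 4.10 to 4.67 in stage I pools, and all 6 genes of proliferating cells were called higher (*pcna*, the DNA polymerase clamp, by 1.51), with sums of 13.1 to 17.7 in stage II and 5.34 to 6.15 in stage I. Of the 6 genes of interstitial cells and matrix, 5 were called lower in stage II, among them *mgp* (matrix Gla protein) at -2.03, with sums over the 6 of 0.928 to 0.988 in stage II and 3.60 to 3.91 in stage I. *ogn* missed the limit with a difference of -1.66 (limma adjusted p = 0.0108). No probe of *ogn*, *thbs1* or *adamts1* in this list was well above background on every array. *amh*, an inhibitory hormone of Sertoli cells and the single Sertoli marker found of 5 listed, had sums of 0.499 to 0.721 in stage II and 1.19 to 1.71 in stage I and was also called lower. Over all tested targets 1.72% were called higher and 6.42% lower, but these genes could be found only because the study had selected them on the same contrast, so nothing is read from their counts. Their part in the difference of the 3 genes was not tested.

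Genes expressed in liver or coding for plasma proteins were looked up, since the liver also expresses *rbp4*. By the study's RT-PCR *rbp4* was expressed at similar levels in all tissues examined, liver and testis included. Of 5 listed, *c4a*, a complement component, and *pah* were found, and both were called lower in stage II, at -2.07 for *c4a* and -1.95 for *pah*, as were 6.42% of all tested targets. Both symbols, too, were paired only through the genes the study selected on these arrays, and nothing is read from their count. Their summed level was 0.110 to 0.160 in stage II pools and 0.547 to 0.612 in stage I pools. *pah* had no probe well above background on every array. None of the 4 Leydig cell symbols and neither of the 2 haemoglobin symbols was paired with a target, so these cells could not be followed. The part of other tissue or cells in the *rbp4* signal was not tested.

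The direction of the difference did not depend on how the arrays were processed. Over 20 alternatives the *rbp4* difference lay between -2.03 and -1.45, and over 19 alternatives each the *crabp1* difference lay between -2.00 and -1.17 and the *cyp26a1* difference between -2.44 and -1.34. Some of these alternatives left a gene's value as it was, among them the block for the pool number, which could not change it. Under 8 ways of making the signal, the one reported included, the stages did not overlap for any of the 3 genes. The genes were chosen on this contrast, and 39.3% of all tested targets were lower without overlap in the reported processing. That share was not computed for the other ways. The smallest gap between the stages was 0.72 for *rbp4* with the deposited unscaled values, and 0.46 for *crabp1* and 0.37 for *cyp26a1* with normexp background correction (median signal, offset 50). Subtracting the median of the negative controls gave -2.44 for *cyp26a1* and -2.00 for *crabp1*, whereas normexp (median signal, offset 50) gave -1.34 for *cyp26a1* and -1.30 for *crabp1*. The deposited values with no scaling gave -1.46 for *cyp26a1* and -1.17 for *crabp1*, which for *crabp1* was the value farthest from that reported.

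**Figure D5:**
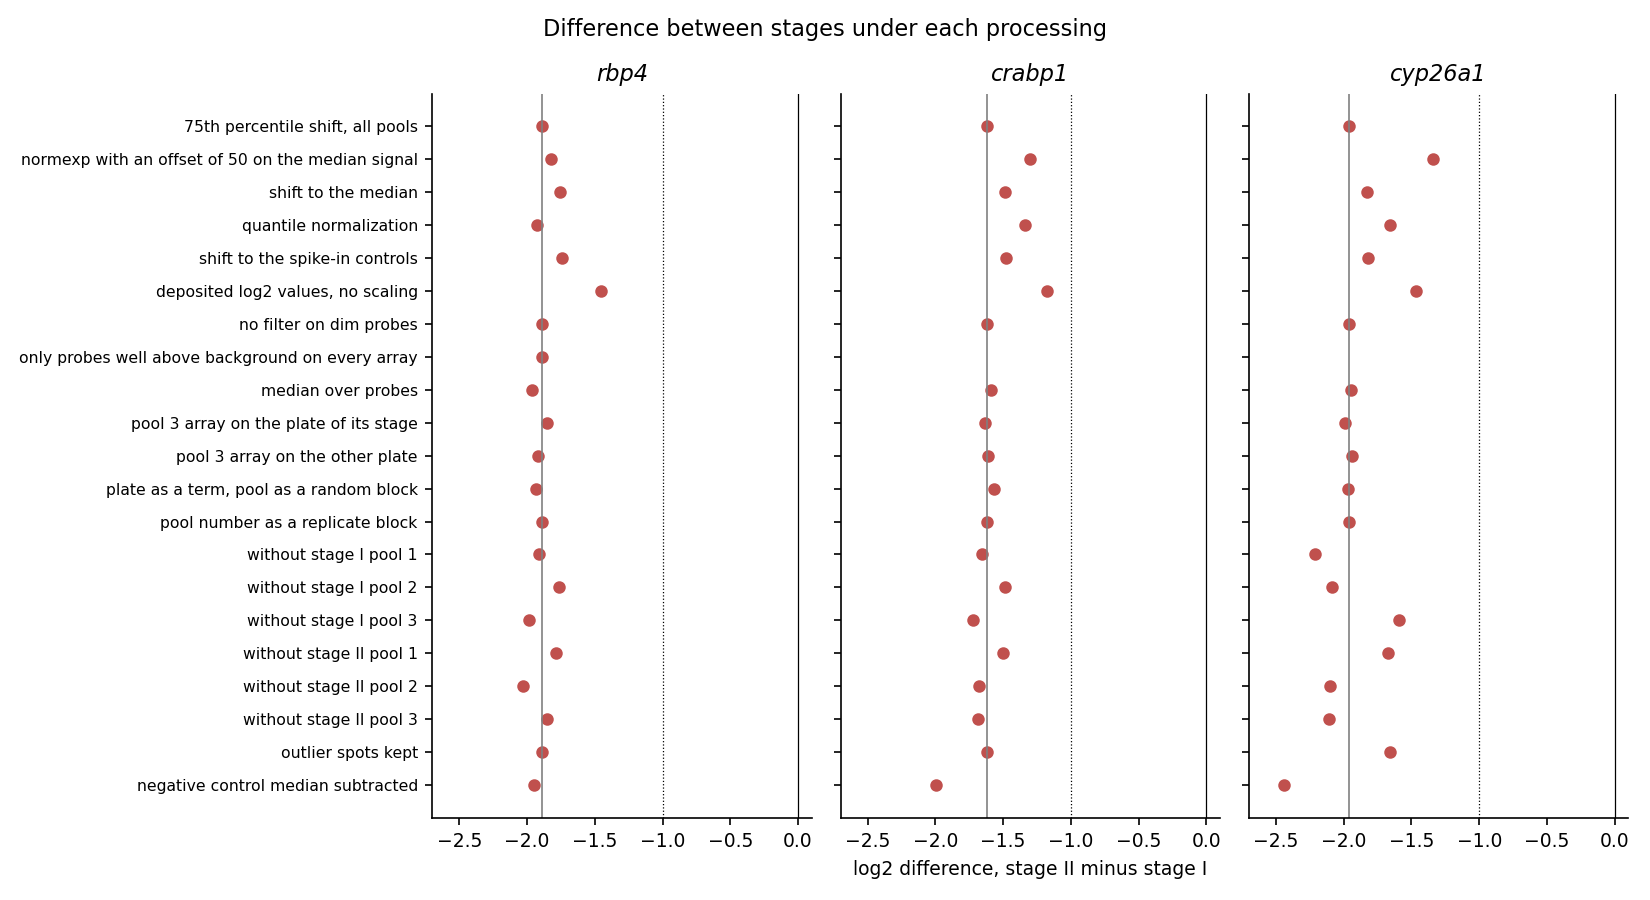
Log2 difference between stage II and stage I (stage II minus stage I) of *rbp4*, *crabp1* and *cyp26a1* under each processing of the arrays, 1 row per processing, with the reported value as a grey line, 0 as a solid line and the fold limit of 2 as a dotted line. Every point lies left of the dotted line, and *cyp26a1*, with values between -2.44 and -1.34, is spread most widely.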

How the data were processed

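RNA of sea bass testis was measured in 3 pools per stage on 8 single-colour arrays. The authors deposited the scanner output, with spot intensity values background-subtracted by Agilent Feature Extraction (10.4 in the submitters' processing notes, 10.7.3.1 in the file headers), and a table of log2 values, which equal log2 of the background-subtracted signal with no scaling between arrays. Log2 of the processed intensity was taken relative to its 75th percentile on each array, and outlier spots were left out. A probe was kept if, on every array of 1 stage or both, a share of at least 0.5 of its non-outlier spots was well above background (18267 of 24200 probes), and 14 features join several targets. Pools were compared with limma 3.58.1 in R 4.3.3, with calls at an adjusted p under 0.01 where the fold also exceeded 2, and the plate with the pool as a random block (correlation 0.779). The methods' filter on standard deviation was not repeated, since its limits are not given in the sources used here. The models were tested on simulated data. Males of a stage were assigned to its pools at random, per the study's methods, and the number of arrays limits the precision. The genes, the lists and the tests were chosen with earlier results of these data known. The named genes are the 3 genes with all probes, those of the retinoid and cell type lists, and the 5 targets closest in pattern, with at most 2 unnamed targets per gene. Alternatives covered background, scaling, filters, probes, plate, a block for the pool number, the methods' t-test and leaving out each pool. Keeping outlier spots and subtracting the negative controls were added after seeing the data.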

Additional observations from a re-analysis of the deposited data

How the results depend on the processing

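No alternative changed the direction of *rbp4*, *crabp1* or *cyp26a1* between stages. Leaving out each pool in turn gave -2.03 to -1.76 for *rbp4*, -1.73 to -1.49 for *crabp1* and -2.21 to -1.59 for *cyp26a1*. Values moved by more than the spread between pools with normexp background correction of the median signal, offset 50 (-1.34 for *cyp26a1*, -1.30 for *crabp1*), quantile normalization (-1.34 for *crabp1*), the deposited unscaled log2 values (-1.45 for *rbp4*, -1.17 for *crabp1*) and subtraction of the negative controls (-2.00 for *crabp1*). The cause was not tested. When a probe had to be well above background on all arrays, *crabp1* and *cyp26a1* had no value, because none of their probes passed on the array of stage II pool 1. The plate difference of *cyp26a1*, -0.02, was 0.0031 with no filter on dim probes, far inside its standard error.

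The number of targets called over the whole array was 734. It was 138 with this normexp setting, which changes the correction, the offset and the input signal together, 456 with no filter on dim probes, 431 with probes detected on all arrays only, 85 with the methods' t-test after adjustment (604 unadjusted), 2422 with no limit on the fold change and 262 with the negative controls subtracted. Leaving out a pool gave 269 to 917, with 386 without stage I pool 1 and 269 without stage I pool 2. Scaling changed the split of calls: 155 higher and 579 lower in stage II as reported, 260 and 428 with a shift to the median, 207 and 328 with quantile normalization, 176 and 343 with the spike-in controls, and 729 and 77 with the deposited values, where the median difference of all targets was 0.33. The stage differences of the 3 genes with the spike-in controls were -1.74 for *rbp4*, -1.48 for *crabp1* and -1.82 for *cyp26a1*.

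The pool numbers do not pair the samples, since males were assigned to the pools of a stage at random. Deviations of pools with the same number had correlations of -0.003, -0.002 and -0.060. Those of pools with different numbers lay between -0.091 and 0.113. A replicate block for the pool number gave 505 called targets and left the differences at -1.89 for *rbp4*, -1.62 for *crabp1* and -1.96 for *cyp26a1*.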
